A study of Mus musculus with 4 samples.

Results

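The macula densa genes described here are Nos1, Pappa2, Robo2, Ndst4, Aard, Kcnd2 and Pde10a, 7 of the 32285 genes in the deposited tables, found by gene symbol. They were taken up with it known that their levels were higher in mutant than in wild-type thick ascending limb cells of these same libraries, so their mutant and wild-type values are given as a description and carry no test. Kidneys were taken from 2 mice carrying a TrnE point mutation, which lies in the mitochondrial transfer RNA gene for glutamate, at mutation loads of 79% (mutant 1) and 76% (mutant 2), and were profiled beside kidneys of 2 wild-type C57BL/6J mice. Viable cells of enzymatically dissociated whole kidney had been sorted and sequenced in droplets from the 3′ end of transcripts, 1 library per mouse. The sources used here do not state the age, sex, litter or processing day of the mice. Wild-type library 1 was deposited under a name like that of a mutant library, and mutant library 1 under a name whose number is not its load. Groups follow the labels, and the mutation itself was not checked in the counts.

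The macula densa is a plaque of specialised cells at the end of the thick ascending limb, where the tubule touches its own glomerulus. Its cells take up salt through the cotransporter encoded by Slc12a1, which they share with the rest of the limb, and release nitric oxide and prostaglandins that adjust the tone of the afferent arteriole and renin release. The neuronal nitric oxide synthase and the inducible cyclooxygenase Ptgs2 are classical markers of these cells, whereas uromodulin (Umod) and pro-epidermal growth factor (Egf) mark the surrounding limb.

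The mutant libraries held 11744 and 10460 barcodes and the wild-type libraries 7595 and 7242, all with at least 500 UMIs (molecules counted by unique identifiers), and 42121175 to 70013861 UMIs in all. Barcodes with more than 50% mitochondrial UMIs, 814 to 1970 per library, were kept. Slc12a1 had at least 1 UMI in 299, 341, 229 and 417 barcodes (values are given throughout for mutant 1, mutant 2, wild type 1 and wild type 2 in turn). Barcodes with at least 2 Slc12a1 UMIs, called Slc12a1 barcodes below, numbered 140, 198, 151 and 140, with median depths of 4282.5, 4823.5, 3852 and 6731 UMIs. The gate took barcodes of other kinds too: summed proximal tubule markers stood at 266, 104, 750 and 2425 CPM in it (counts scaled to a common total per library). Slc12a1 itself stood at 4377, 4456, 5710 and 4305 CPM in these barcodes, with no separation of the groups. Any pair of libraries shared 14 to 26 barcode sequences. Intervals below are exact 95% intervals and cover counting error only. UMIs of a gene came from few barcodes, so the true uncertainty of a level is wider.

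In Slc12a1 barcodes all 7 genes had a higher level in each mutant library than in either wild-type library, as the choice of the genes implies. Over all 9551 genes tested there, 15.7% had both mutant levels above both wild-type levels, with no test, and edgeR called 0% at an adjusted p of 0.05. The quasi-likelihood test of edgeR called 0 genes, with 1785 at an unadjusted p under 0.05, and DESeq2 called 94.

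Nos1 (ENSMUSG00000029361, chromosome 5, 117781032 to 117958840, plus strand, mm10) makes nitric oxide from arginine. Its level in Slc12a1 barcodes was 26.9, 23.8, 0 and 0 CPM. Both mutants had nearly equal levels, 25.4 ± 2.20 CPM (SD, n = 2), which rest on few barcodes. A barcode of mutant 1 gave 18 of its 27 UMIs, and a barcode of mutant 2 gave 9 of its 30. No wild-type UMI was counted, so that 57 UMIs stood against 0. Set over a floor of 3 counts in the wild-type group, that is 19.3-fold, a point value and not a lower bound. Pde10a (ENSMUSG00000023868, chromosome 17, 8525372 to 8986648, plus strand) hydrolyses the second messengers cAMP and cGMP. Its level was 109, 61.1, 16.6 and 10.5 CPM, 84.9 ± 33.7 against 13.5 ± 4.34 (SD, n = 2), with 186 UMIs against 30 and a ratio of 6.30 (4.27 to 9.60). It was the member with the highest level in both wild types.

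Pappa2 (ENSMUSG00000073530, chromosome 1, 158711727 to 158980490, minus strand) encodes a secreted protease that cleaves binding proteins of insulin-like growth factors. Its level was 167, 42.9, 0 and 0 CPM. The mutants differed from each other 3.89-fold, and 221 UMIs stood against 0, 74.9-fold over the floor as a point value. Ndst4 (ENSMUSG00000027971, chromosome 3, 125404076 to 125728899, plus strand) belongs to the enzymes that remove acetyl groups from heparan sulfate chains and sulfate them. Its level was 34.9, 27.0, 1.04 and 0 CPM, and 69 UMIs against 1 gave a ratio of 70.1 with an interval of 12.2 to 2809.98.

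Robo2 (ENSMUSG00000052516, chromosome 16, 73891839 to 74411825, minus strand) is a receptor for the secreted Slit guidance proteins. Its level was 173, 80.2, 4.15 and 2.25 CPM, 126 ± 65.3 against 3.20 ± 1.35 (SD, n = 2), and 274 UMIs against 7 gave a ratio of 39.8 (19.1 to 99.9). Kcnd2 (ENSMUSG00000060882, chromosome 6, 21215503 to 21729805, plus strand) encodes a voltage-gated potassium channel of rapidly inactivating currents. Its level was 24.9, 35.7, 0 and 0.749 CPM, the only member with the higher mutant value in mutant 2, and 70 UMIs against 1 gave a ratio of 71.2 with an interval of 12.4 to 2850.1. Aard (ENSMUSG00000068522, chromosome 15, 52040107 to 52045722, plus strand) encodes a protein rich in alanine and arginine. Its level was 26.9, 12.7, 0 and 0 CPM, and 43 UMIs stood against 0, 14.6-fold over the floor as a point value. Software version differed with genotype (7.0.0 for the mutants, 7.1.0 for the wild types), and the 2 cannot be told apart.

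**Figure D1:**
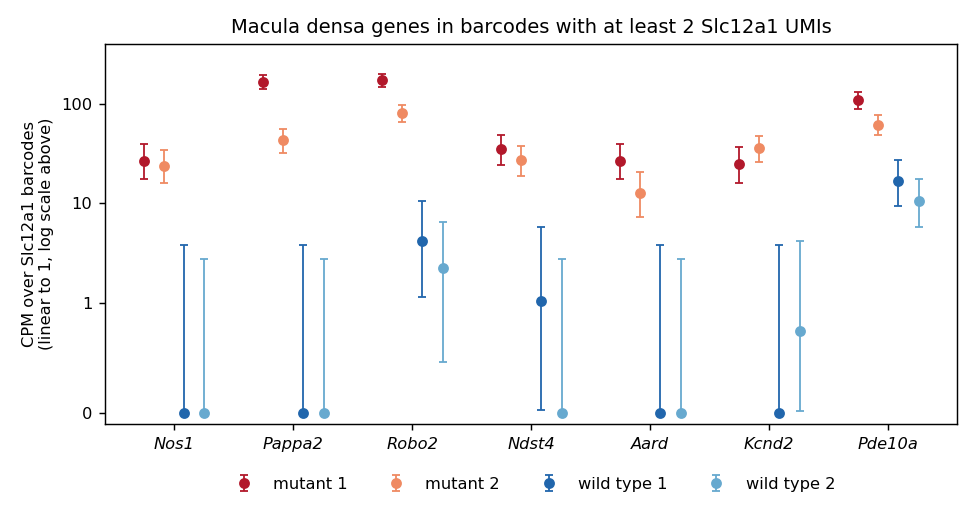
Level of each gene in Slc12a1 barcodes, in CPM (linear up to 1, logarithmic above), for each of the 4 libraries. Points are pooled levels and bars exact 95% counting intervals; both mutants lie above both wild types for all 7 genes, and Pde10a has the smallest gap.

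Of the 7 genes, 5 were matched in the RefSeq table of promoter windows (GRCm38.p6, the assembly also called mm10). Robo2, Pde10a and Kcnd2 occurred together in some Slc12a1 barcodes (below). The 250 bases before a listed start are shown for these 3 genes, which have a window free of annotated exons. Of 3 such windows of Robo2, the one that adjoins the annotated gene is shown. The listed start of Kcnd2 lies upstream of the start of the gene in the annotation used for positions, and that of Pde10a lies inside the annotated gene. Windows of Nos1 and Pappa2 and another of Pde10a, which abut or overlap annotated exons, are not printed. Capitals mark a motif match, and sequences read 5′ to 3′ on the strand of the gene.
Robo2, chr16:74411826-74412075, minus strand: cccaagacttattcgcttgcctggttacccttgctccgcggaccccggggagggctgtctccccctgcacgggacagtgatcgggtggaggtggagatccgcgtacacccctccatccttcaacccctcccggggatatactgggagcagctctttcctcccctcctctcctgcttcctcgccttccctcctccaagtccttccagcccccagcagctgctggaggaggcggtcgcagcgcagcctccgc
Pde10a, chr17:8849735-8849984, plus strand: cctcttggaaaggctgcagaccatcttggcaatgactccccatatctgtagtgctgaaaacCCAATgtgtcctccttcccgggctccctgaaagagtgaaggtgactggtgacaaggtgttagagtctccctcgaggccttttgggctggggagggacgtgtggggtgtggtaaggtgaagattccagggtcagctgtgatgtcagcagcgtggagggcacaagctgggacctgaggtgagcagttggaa
Kcnd2, chr6:21215096-21215345, plus strand: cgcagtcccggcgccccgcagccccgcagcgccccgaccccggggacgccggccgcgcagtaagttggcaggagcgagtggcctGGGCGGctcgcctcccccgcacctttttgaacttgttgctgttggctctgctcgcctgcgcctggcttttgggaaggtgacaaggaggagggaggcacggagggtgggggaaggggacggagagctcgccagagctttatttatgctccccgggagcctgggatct
Both strands were searched for the TATA box TATAAA, the CCAAT box, the GC box GGGCGG, the E-box CACGTG, the AP-1 site TGANTCA and the cAMP response element core TGACG. The last pair share their first letters. The Pde10a window held CCAAT 189 bases before the start, a motif present in 33.8% of all 32851 windows. The Kcnd2 window held GGGCGG 166 bases before its start, a motif present in 32.7% of windows, and the Robo2 window shown held none of these letter strings. A Robo2 window farther upstream (chr16:75447294-75447543, not shown) held CACGTG, a palindrome, 18 bases before its start, a motif present in 6.02% of windows. The other Pde10a window (chr17:8801495-8801744, not shown) held GGGCGG on the opposite strand, 146 bases before its start. No motif was shared by the 3 windows shown, and TATAAA, present in 12.4% of all windows, was in none of them. GC content was 65.6%, 56.0% and 68.8% for Robo2, Pde10a and Kcnd2.

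Nos1 and Pappa2 were found mostly in barcodes that also held Slc12a1 in the mutants, and in none such in the wild types. Nos1 had a UMI in 7, 7, 3 and 2 barcodes of the whole libraries, of which 5, 4, 0 and 0 held Slc12a1. For mutant 1 that is 71.4% (29.0 to 96.3) and for mutant 2 57.1% (18.4 to 90.1). By UMIs the concentration was greater: 27 of 29 Nos1 UMIs in mutant 1 and 30 of 33 in mutant 2 lay in barcodes with Slc12a1. Pappa2 had a UMI in 13, 7, 1 and 9 barcodes, of which 9, 4, 0 and 0 held Slc12a1, and 90.8% and 94.7% of its UMIs in the mutants lay there. Wild type 2 held 25 Pappa2 UMIs in 9 barcodes without Slc12a1, 12 of them in a barcode led by proximal tubule markers. A barcode of mutant 1 led by macrophage markers, also without Slc12a1, held 14 of the 184 Pappa2 UMIs of that library. Among barcodes without Slc12a1, the background for these shares, 0.0175%, 0.0296%, 0.0407% and 0.0293% had a Nos1 UMI and 0.0349%, 0.0296%, 0.0136% and 0.132% a Pappa2 UMI, at median depths of 3868, 5393, 4039.5 and 5707 UMIs.

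Ndst4 and Aard followed the same pattern in the mutants. Ndst4 was found in 9, 7, 3 and 4 barcodes, of which 9, 4, 1 and 0 held Slc12a1. Aard was found in 7, 7, 2 and 1 barcodes, of which 6, 5, 0 and 0 held Slc12a1. For Aard in mutant 2 a barcode led by principal cell markers held 15 of its 32 UMIs.

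Kcnd2, Robo2 and Pde10a were spread more widely. Kcnd2 was found in 22, 17, 8 and 8 barcodes, of which 10, 5, 0 and 2 held Slc12a1. Robo2 was found in 80, 39, 23 and 12 barcodes, and 14, 9, 3 and 3 of these held Slc12a1, shares of 17.5%, 23.1%, 13.0% and 25% whose intervals overlap. Pde10a was found in 166, 240, 183 and 55 barcodes, and 18, 12, 8 and 7 of these held Slc12a1, shares of 10.8%, 5.00%, 4.37% and 12.7% with no order by group. Barcodes above 50% mitochondrial UMIs added few such cases. In all, 3 held a member together with Slc12a1, each with Pde10a, in mutant 1, wild type 1 and wild type 2. Barcodes above that limit made up 22.1%, 24.7%, 29.8% and 17.9% of Slc12a1 barcodes, and they count in the totals of the shares below.

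Among Slc12a1 barcodes, Pappa2 was detected in 6.43% (2.98 to 11.9) of those of mutant 1 and 2.02% (0.553 to 5.09) of those of mutant 2. Nos1 was detected in 3.57% (1.17 to 8.14) and 2.02% (0.553 to 5.09). In the wild types neither was detected in 151 and 140 barcodes, which allows shares of barcodes with a UMI of up to 1.99% and 2.14% (3 counts of the total), with exact upper bounds of 2.41% and 2.60%. The share in mutant 2 lies within these bounds, so a difference of that size was not detectable with this number of barcodes. The limits are on barcodes with a UMI, not on cells that express the gene. For Pde10a the shares were 11.4%, 4.55%, 3.97% and 2.14%, with mutant 2 and wild type 1 inside each other's intervals. Thinned to 2000 UMIs per barcode, with shallower barcodes left out, Pde10a shares were 8.79%, 2.41%, 1.75% and 2.22%.

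**Figure D2:**
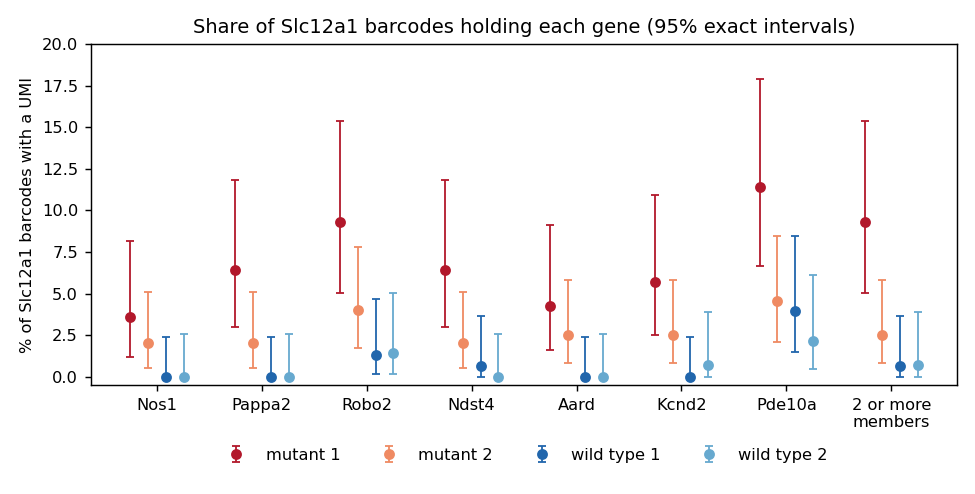
Share of Slc12a1 barcodes with at least 1 UMI of each gene, and with 2 or more of the 7 genes, in percent, per library. Points are shares and bars exact 95% intervals; mutant 1 is highest for each gene, and mutant 2 overlaps the wild-type intervals throughout.

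The members lay together in a few barcodes. At least 2 of the 7 were detected in 13 of 140, 5 of 198, 1 of 151 and 1 of 140 Slc12a1 barcodes, shares of 9.29% (5.04 to 15.4), 2.53% (0.825 to 5.79), 0.662% (0.0168 to 3.63) and 0.714% (0.0181 to 3.92). At least 3 were detected in 11, 4, 1 and 0, and at least 3 with Nos1 or Pappa2 among them in 9, 4, 0 and 0. Thinned to 2000 UMIs, 9 of 91, 3 of 166, 0 of 114 and 0 of 90 held 2 or more members. Barcodes without Slc12a1 held 2 or more members in 14, 5, 6 and 0 cases and 3 or more in none of the 4 libraries. Fewer macula densa cells and less RNA of these genes per cell cannot be told apart in barcodes without a UMI.

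These multi-member barcodes carried most UMIs of each member in the Slc12a1 barcodes of the mutants, except those of Pde10a in mutant 2. They held 100% of the Nos1 and Pappa2 UMIs of the Slc12a1 barcodes in both mutants, and 97.7% and 85.1% of the Robo2 UMIs. For Ndst4 the shares were 94.3% and 100%, for Aard 100% and 68.8%, and for Kcnd2 84.0% and 62.2%. Pde10a differed between the mutants, with 94.5% in mutant 1 and 32.5% in mutant 2, where a Slc12a1 barcode outside this set held 35 of its 77 UMIs. Without the multi-member barcodes, a comparison added after the data were seen, 2 of the 7 genes (Robo2 and Kcnd2) had both mutants above both wild types. Robo2 stood at 4.46, 12.5, 2.10 and 0.758 CPM, and Kcnd2 at 4.46, 14.2, 0 and 0.758 CPM. With all Slc12a1 barcodes, 15.7% of all genes tested had that order, and 3 counts in mutant 1 were 2.99 CPM. The values of mutant 1 thus lie near that floor, and no excess is read from the 2 genes.

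The barcodes were not shallow and not rich in mitochondrial UMIs. Their median depth was 7658 UMIs in mutant 1 and 10618 in mutant 2, against 4045 and 4600 in Slc12a1 barcodes without a member. Their mitochondrial share reached at most 19.8% and 21.7%, and Scrublet called none of them a doublet. It called 0 of all 140 Slc12a1 barcodes of mutant 1 and 2 of all 198 of mutant 2, so the lack of calls says little about them. Markers of other cell types were present in some of the 18. At least 3 UMIs of another marker list were found in 3 of the 13 in mutant 1, 2 of them with Nos1 or Pappa2, and in 1 of the 5 in mutant 2. In mutant 1 the T cell list reached 27 UMIs in 1 barcode, the endothelium list 27 UMIs in 1 barcode and the podocyte list up to 8 UMIs in 2 barcodes. In mutant 2 the proximal tubule list reached 20 UMIs in 1 barcode, and macrophage markers were found in all 5 at no more than 2 UMIs. A comparison added after the data were seen left out the mutant barcodes with at least 3 such UMIs. It also left out the wild type 2 barcode with 31 proximal tubule marker UMIs. All 7 members then had both mutants above both wild types, an order that the choice of the genes implies. With all Slc12a1 barcodes, 15.7% of all genes tested had that order. Without the barcodes left out, Nos1 stood at 27.6 and 17.6 CPM and Pappa2 at 160.4 and 36.1 CPM in the mutants. Both stood at 0 in the wild types. Only multi-member barcodes were screened for these markers.

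All 7 members were present in 2 barcodes of mutant 1 and 1 of mutant 2. The barcode with the most member UMIs in mutant 1 held 18 UMIs of Nos1, 54 of Pappa2, 36 of Robo2, 15 of Ndst4, 5 of Aard, 6 of Kcnd2 and 3 of Pde10a, beside 90 of Slc12a1 and 0 of Umod. Its counterpart in mutant 2 held 8 UMIs of Nos1, 24 of Pappa2, 60 of Robo2, 26 of Ndst4, 7 of Aard, 28 of Kcnd2 and 13 of Pde10a, beside 118 of Slc12a1 and 5 of Umod. In both, every member was present while the order of abundance differed. That barcode gave 28 of the 45 Kcnd2 UMIs and 26 of the 34 Ndst4 UMIs of the Slc12a1 barcodes of mutant 2. The wild-type barcodes with 2 or more members were different: that of wild type 1 held 2 UMIs of Robo2, 1 of Ndst4 and 1 of Pde10a with 114 of Umod, and that of wild type 2 held 2 of Robo2 and 1 of Pde10a with 155 of Umod.

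Over the 18 multi-member barcodes of the mutants, Robo2 was detected in 17 (median 8.5 UMIs, highest 60), Pde10a in 16 (median 4.5, highest 22), Pappa2 in 13 (median 6, highest 54) and Ndst4 in 12 (median 1, highest 26). Nos1 and Aard were each detected in 9 and Kcnd2 in 7. Each of the 9 barcodes with Nos1 also held Pappa2, Robo2 and Pde10a. Each of the 13 with Pappa2 held Robo2, and each of the 7 with Kcnd2 held Pappa2 and Robo2. Since 2 or more members define the set, these overlaps describe it and are no test.

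**Figure D3:**
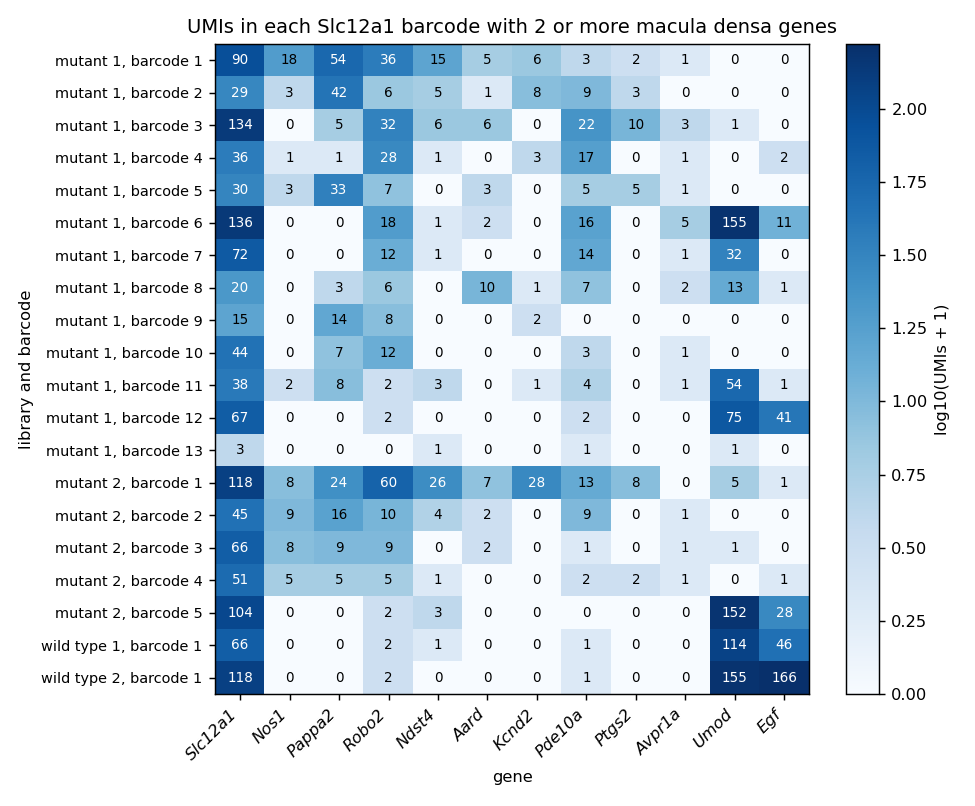
UMIs of Slc12a1, the 7 genes, Ptgs2, Avpr1a, Umod and Egf (columns) in each of the 20 Slc12a1 barcodes with 2 or more members (rows, by library), with the count printed and shading on a log10(UMIs + 1) scale. Rows with Nos1 or Pappa2 come from the mutants and have 0 to 54 Umod UMIs, while both wild-type rows have over 100.

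Genes outside the 7 varied with them in these barcodes. Of the 13 mutant multi-member barcodes with Nos1 or Pappa2, 8 had no Umod UMI and 11 had 5 or fewer (range 0 to 54), 6 held the cyclooxygenase gene Ptgs2 (30 UMIs) and 10 held the vasopressin receptor gene Avpr1a. The other 5 multi-member barcodes had a median of 75 Umod UMIs (range 1 to 155), and none held Ptgs2. Avpr1a was in 2 of these 5, and 1 of them had its highest count, 5 UMIs. Pooled, Umod stood at 3155 CPM in the multi-member barcodes of mutant 1 against 14657 CPM in its Slc12a1 barcodes without a member, and at 2707 against 16379 CPM in mutant 2. Egf stood at 534 against 2821 CPM and at 514 against 2148 CPM. Most of these UMIs came from barcodes with neither Nos1 nor Pappa2: in those with either gene, Umod stood at 914 CPM in mutant 1 and 140.5 CPM in mutant 2, and Egf at 53.8 and 46.8 CPM. Slc12a1 was not lower, with 6806 against 3977 CPM and 6579 against 3501 CPM. Of the member-free barcodes, 30 of 119 in mutant 1 and 49 of 179 in mutant 2 had more than 50% mitochondrial UMIs. In Slc12a1 barcodes with exactly 1 member, Slc12a1 stood at 5300 CPM in mutant 1 and 9785 CPM in mutant 2.

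Umod-poor barcodes were then counted in all libraries. The limits, at least 15 Slc12a1 UMIs and at most 5 Umod UMIs, were set after the data were seen and take in the 11 Umod-poor mutant barcodes just described, so their count restates them. Such barcodes numbered 8 of 56, 6 of 90, 0 of 71 and 2 of 68. Nos1 or Pappa2 was present in 7, 4, 0 and 0 of them. The 5 others held no member, and 4 of these had 62.5% to 69.2% mitochondrial UMIs, while the remaining barcode, in wild type 2, had 26.3%. Ptgs2 was found in 4, 4, 0 and 1 Slc12a1 barcodes and Avpr1a in 11, 4, 1 and 0. The wild type 2 barcode with Ptgs2 held 11 UMIs of it and no member.

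The genes most like the members were ranked by the fold of their pooled CPM in multi-member over member-free Slc12a1 barcodes of mutant 1, the only library with at least 10 of the former, among 987 genes with at least 30 UMIs in multi-member barcodes. The first 10 were Bmp3, Srgap1, Ptgs2, Tshr, Tmem158, Ctnnd2, Kcnc2, Ramp3, Car8 and Pla2g4a. Only 5 of the 10 reached that minimum in mutant 1 alone, so the values of mutant 2 helped to choose the genes and are given as a description. Bmp3, a bone morphogenetic protein, stood at 334 against 0 CPM in mutant 1 and 223 against 1.93 CPM in mutant 2. Srgap1, a GTPase-activating protein that binds Robo receptors, stood at 248 against 0 and 206 against 9.63 CPM. Pla2g4a, the phospholipase that frees arachidonic acid for cyclooxygenases, stood at 286 against 12.2 and 394 against 27.9 CPM. Tshr, the thyrotropin receptor gene, stood at 296 against 1.22 and 257 against 4.82 CPM. The values of mutant 2 rest on 10 to 23 UMIs per gene, and without the barcode highest for the gene they were 207 CPM for Pla2g4a and 104 CPM for Tshr.

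Several other genes were also unequal between these barcodes. Of those named here, Irx1, Thsd4 and Fabp3 are on the list of other macula densa genes. Slit2, which encodes a ligand of Robo2, stood at 667 against 248 CPM in mutant 1 and 2364 against 167 CPM in mutant 2. A barcode of mutant 2 held 90 of its 138 UMIs there, and without it the level was 996 CPM. The transcription factor gene Irx1 stood at 572 against 63.5 and 822 against 103 CPM, and Thsd4 at 696 against 41.5 and 754 against 40.5 CPM (353 CPM in mutant 2 without its highest barcode). The kinase gene Wnk1, a regulator of salt cotransport, stood at 1192 against 279.8 and 737 against 323 CPM, but at 332 CPM in mutant 2 without its highest barcode. Fabp3, a fatty acid carrier that is itself on the list of other macula densa genes below, went the other way and stood at 28.6 against 553 and 34.3 against 466 CPM, and the tight junction gene Cldn19 at 47.7 against 205 and 68.5 against 194 CPM, all on 2 to 5 UMIs per library. These are pooled values of few barcodes within 1 mouse each and carry no test.

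**Figure D4:**
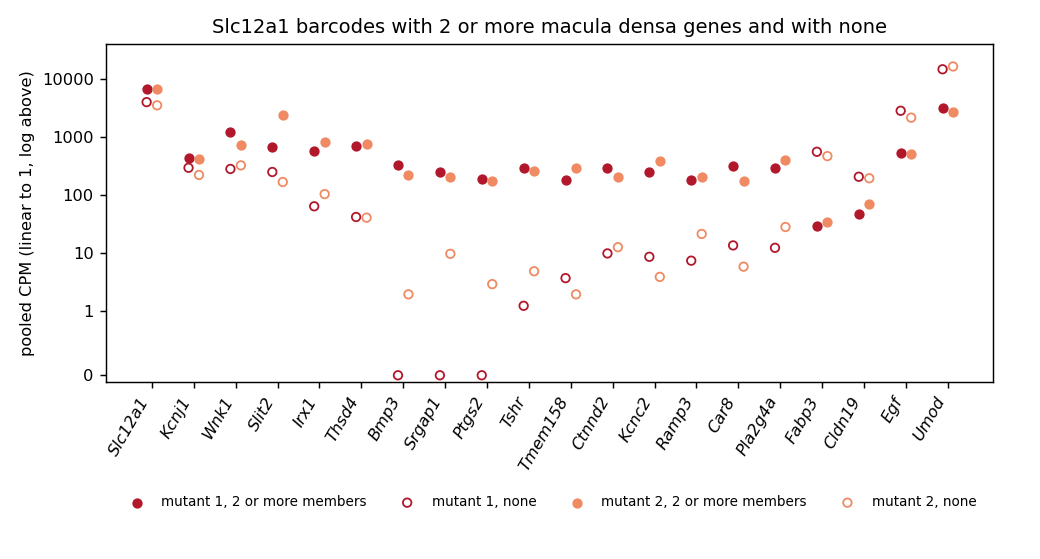
Pooled CPM (linear up to 1, logarithmic above) of other named genes and of the 10 genes most like the members, in Slc12a1 barcodes with 2 or more members (filled) and with none (open), for mutant 1 and mutant 2. Slc12a1 is not lower in the filled points, the 10 like genes are higher, and Fabp3, Cldn19, Egf and Umod are lower in both libraries.

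Over all barcodes the members parted by the marker list that led a barcode, which describes the barcode and does not name its cell type. The leading list is the one with the most UMIs summed over its genes, if these reach 3. Robo2 was high in barcodes led by podocyte markers, at 523, 73.2, 22.4 and 531 CPM, of which the last rests on 29 UMIs in 1 of 5 barcodes. In mutant 1 these barcodes held 286 of its 534 UMIs, against 174 in barcodes led by thick ascending limb markers. Barcodes led by fibroblast and mural markers had 86.6, 79.5 and 468 Robo2 CPM in mutant 1, mutant 2 and wild type 1. In wild type 2 a barcode of 41287 UMIs led by proximal tubule markers held 43 of the 83 Robo2 UMIs.

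Pde10a was present in barcodes led by distal convoluted tubule markers in all 4 libraries, at 127, 230, 291 and 141 CPM, and in those led by endothelial markers at 29.5, 31.4, 34.4 and 77.3 CPM. In neither place did both mutants lie above both wild types. The choice of the gene implies that order in Slc12a1 barcodes, so no contrast between the places is read. In Slc12a1 barcodes without the multi-member ones, Pde10a stood at 6.69, 43.3, 15.8 and 9.86 CPM and lacked that order. Kcnd2 had 18 UMIs in podocyte-led barcodes of mutant 1 and 16 in intercalated-led barcodes of wild type 2. Nos1 outside the limb came as 1 UMI per barcode in the mutants and as at most 2 in the wild types.

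**Figure D5:**
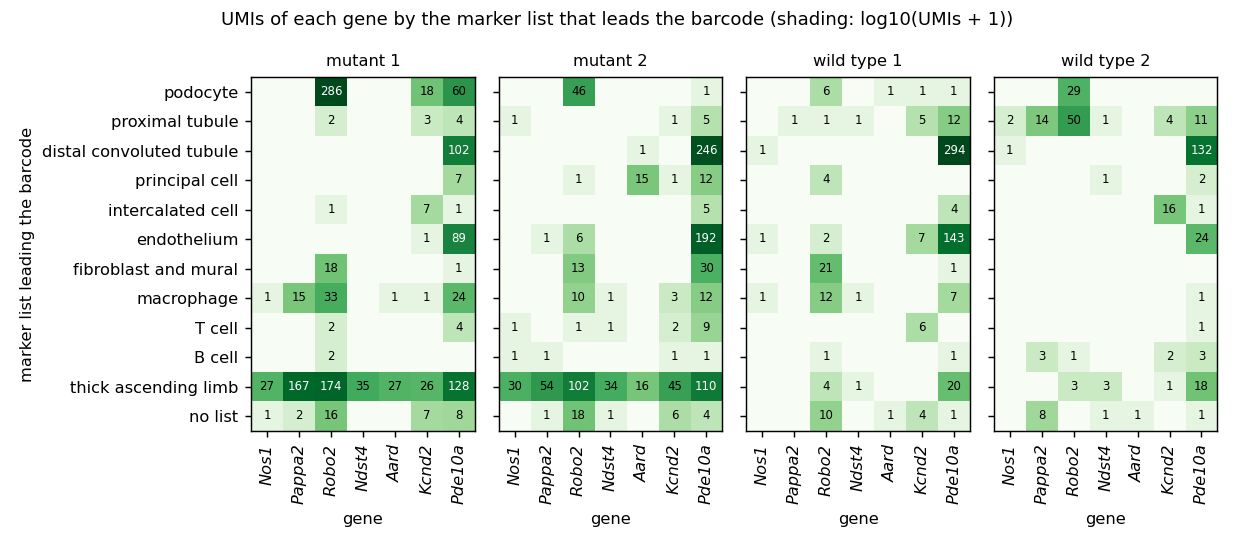
UMIs of each gene (columns) in barcodes grouped by the marker list that leads them (rows), 1 panel per library, with the count printed and shading on a log10(UMIs + 1) scale. Nos1, Pappa2 and Ndst4 lie mostly in the thick ascending limb row of the mutants, as does Aard in mutant 1. In mutant 2 Aard has 16 UMIs in that row and 15 in the principal cell row. Robo2 lies also in the podocyte row and Pde10a in the distal convoluted tubule and endothelium rows of each library.

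The other genes of the members' pathways were read in the Slc12a1 barcodes from summed UMIs per library, with edgeR's quasi-likelihood test over all 9551 genes. No gene of any list passed an adjusted p of 0.05. The median log2 fold change of all genes was -0.00027. Of 20 other macula densa genes 11 could be tested, 8 with a positive fold change (Fabp3, at 0.26, among them) and a median of 0.69. Bmp3 stood at 34.9, 12.7, 4.15 and 0 CPM (log2 fold change 3.84, adjusted p = 0.155, edgeR). Pamr1, which encodes a protein with a peptidase domain, stood at 53.9, 42.1, 14.5 and 5.24 CPM (2.54, adjusted p = 0.114, edgeR). Thsd4 stood at 125, 85.8, 68.5 and 29.2 CPM, and Itga4, an integrin chain, at 13.0, 34.1, 65.4 and 85.3 CPM. Without the multi-member barcodes the log2 fold change of Pamr1 was 2.30, that of Thsd4 0.62 and that of Srgap1 0.23.

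For the pathway of Nos1 and Pde10a, 11 of 18 nitric oxide and cyclic nucleotide genes were tested, 5 with a positive fold change and a median of -0.44. Ddah2, which degrades an inhibitor of nitric oxide synthases, stood at 47.9, 61.1, 24.9 and 25.5 CPM (log2 fold change 1.35, adjusted p = 0.127, edgeR). Nos1ap, an adaptor of the synthase, stood at 43.9, 29.4, 70.6 and 92.8 CPM, and the phosphodiesterase genes Pde4d and Pde1a had log2 fold changes of -1.33 and -0.57. For that of Pappa2, 9 of 16 genes of the insulin-like growth factor axis were tested, 4 positive, with a median of -0.62. The receptor gene Igf1r stood at 118, 143, 339 and 365 CPM (log2 fold change -1.20, adjusted p = 0.114, edgeR). Irs1, Irs2 and Igfbp4 had log2 fold changes of -1.02, -1.09 and -0.67.

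For that of Robo2, 5 of 9 Slit and Robo genes were tested, 2 positive, with a median of -0.00068. Srgap1 stood at 27.9, 21.4, 14.5 and 2.25 CPM (log2 fold change 1.84, adjusted p = 0.234, edgeR), and Srgap3, Srgap2 and Slit3 had log2 fold changes of 0.54, -0.20 and -0.18. The receptor gene Robo1 had 0, 4, 1 and 2 UMIs. For that of Ndst4, 11 of 18 heparan sulfate genes were tested, 4 positive, with a median of -0.15. Glce, Ndst1, Ext1 and Extl3, which modify or build the chain, had log2 fold changes of -1.96, -0.80, -0.70 and -0.63. For Kcnd2, none of 8 genes of its channel family and partner subunits could be tested, and each had at most 9 UMIs per library.

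Of 18 thick ascending limb genes, 17 were tested, 12 positive, with a median of 0.29. Cldn16 and Cldn19, tight junction genes, and Kcnj1, a potassium channel gene, had log2 fold changes of 1.02, 0.69 and 0.67. The renin gene Ren1 had no UMI in Slc12a1 barcodes of any library, and of 4 renin cell genes only Crip1 was tested. Markers of other kinds moved beside these values: all 6 proximal tubule markers and all 3 B cell markers had both mutant levels below both wild-type levels, as did 35.7% of all genes tested. B cell markers summed to 54.9, 51.6, 158 and 173 CPM. T cell markers went the other way, with 3 of 5 above in both mutants (15.7% of all genes) and sums of 120, 232, 54.0 and 111 CPM. Macrophage markers summed to 377, 941, 434 and 87.6 CPM, with no separation of the groups. Immediate early genes summed to 1822, 654, 468 and 763 CPM, and Acta2 had 176 UMIs in wild type 1 only. Podocyte markers summed to 32.9, 28.6, 20.8 and 8.23 CPM, with Wt1 at 0. Their part in the list values was not tested.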

How the data were processed

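Per the labels, viable cells of whole kidney were sorted and sequenced with a droplet 3′ kit in 2 TrnE mutant and 2 wild-type mice. The deposited matrices hold raw UMI counts per gene and barcode, which the authors made with Cell Ranger 7.0.0 (mutants) and 7.1.0 (wild types) per the file headers, on mm10 per the submitters' processing notes. The annotation used for counting is not given in the sources used here, and positions are from GENCODE M21. The members and gene lists were chosen with earlier results of these data known.

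All barcodes with at least 500 UMIs were used, including those over 50% mitochondrial. UMIs were summed per library over barcodes with at least 2 Slc12a1 UMIs, and genes kept by filterByExpr entered the quasi-likelihood test of edgeR 4.0.16 (in R 4.3.3) with TMM scaling. P-values were adjusted over all genes by the Benjamini-Hochberg method. DESeq2 1.42.0 was an alternative. CPM divides by the UMIs of those barcodes. Nothing beyond the labels says the libraries of a group are independent litters or days, so p-values measure the spread between these samples. No correction for free RNA was made. Doublets (Scrublet in scanpy 1.11.5, at most 50% mitochondrial and at least 200 genes) were kept, and removed as an alternative. Thinning drew 2000 UMIs per barcode.

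Named were the members, Slc12a1, of each list the genes past the threshold and up to 4 others with the smallest p, and the 10 genes most like the members (at least 30 UMIs in multi-member barcodes of all libraries, 0.5 added to each count). Ptgs2, Avpr1a, Umod, Egf, Slit2, Irx1, Wnk1, Fabp3, Robo1, Ren1, Acta2 and the single markers given for the multi-member barcodes were singled out after their values were seen. Alternatives were RLE scaling, no filter, a replicate block, other gates, at most 50% mitochondrial, at least 1500 UMIs, doublets removed, thinning, and each library left out. Some genes that the rule or the marker lists hold are not reported here.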

Additional observations from a re-analysis of the deposited data

How the results depend on the processing

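The count of genes that edgeR called in Slc12a1 barcodes was 0 and depended on the setting. It was 829 without a filter on low counts, 19 with at least 5 Slc12a1 UMIs, 120 with at least 1 Slc12a1 UMI per 1000, 10 with Scrublet calls removed and 94 with DESeq2. Leaving out 1 library in turn gave 11 to 1016 calls, 14 without mutant 1, 11 without mutant 2, 1016 without wild type 1 and 98 without wild type 2, the lone library being assumed to vary like the other group. It was 0 with RLE scaling, at least 1 Slc12a1 UMI, at most 50% mitochondrial UMIs, at least 1500 UMIs, and without the multi-member barcodes. The cause was not tested. The replicate block gave 61 calls. Deviations from the group means correlated at -0.024 between libraries of the same number. With 2 libraries per group the value for crossed numbers, 0.024, is the same value with its sign turned. It adds no comparison, and whether libraries of the same number share a day or batch cannot be told from it. Crip1 had a log2 fold change of -0.67, and of 1.82 (adjusted p = 0.00603, edgeR) without wild type 1, and of -1.56 (adjusted p = 0.0196, edgeR) without wild type 2.

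The number of members with both mutants above both wild types was 7 with each other gate, mitochondrial limit, UMI minimum and doublet removal, and 2 without the multi-member barcodes, which by construction hold most member UMIs. In the main setting 15.7% of all genes tested had that order. The share of barcodes with 2 or more members was 4.68% in mutant 1 with at least 1 Slc12a1 UMI, and 0 in both wild types after thinning. Thinning also moved shares of member-positive barcodes with Slc12a1, each on few barcodes: 100% for Aard in both mutants (4 of 4 and 2 of 2), 100% for Nos1 (3 of 3) and Ndst4 (1 of 1) in mutant 2, 20% for Kcnd2 in mutant 1 (1 of 5) and 0% for Robo2 in wild type 2 (0 of 3). With 140 to 198 Slc12a1 barcodes per library, a count of 0 allows shares of barcodes with a UMI of 1.52% to 2.14% (3 counts of the total; the exact upper bounds in the wild types are 2.41% and 2.60%).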
